A study of Mus musculus with 9 samples.

Results

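Solute carrier genes with measurable expression were described in 9 RNA-seq libraries of mouse cells. The genes were taken by symbol (Slc, a family number, a letter and a member number) from a table of 19240 genes and were chosen by their measured level, a mean of 1 FPKM or more over all 9 libraries. FPKM is the number of fragments per kilobase of gene, scaled to the mapped fragments of the library. Of 353 genes with such a symbol, 173 reached this level. The libraries formed 3 groups of 3, named OEA8_Ctrl, OEA8_67 and OEA8_69. OEA8_Ctrl was labelled an overexpression control, and by the labels and the study the other groups overexpressed S100A8 with a point mutation at residue 67 or residue 69. S100A8 is a calcium-binding protein of myeloid cells. The labels do not name the construct of OEA8_Ctrl, and the study describes its comparison group as cells overexpressing S100A8. The labels give no agent, age or strain. Per the study's methods, the genes were delivered by lentivirus and infected cells were selected with puromycin. The labels call the cells hematopoietic stem cells, whereas the study describes its point-mutation experiment in mouse embryonic fibroblasts.

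Solute carriers are membrane proteins that move amino acids, sugars, metals, lipids, ions, nucleotides and other small molecules across the cell surface and the membranes of organelles. Most are secondary transporters or facilitators, driven by a gradient of sodium, protons or the substrate itself, and families are numbered by sequence. In growing fibroblasts they supply amino acids and glucose for protein synthesis and energy, control entry and exit of zinc and iron, and exchange metabolites between cytosol and mitochondria.

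The markers went against the labelled cell type. Of 12 fibroblast markers, 11 reached 1 FPKM, with a median of 164 FPKM, whereas the 12 markers of hematopoietic stem cells had a median of 0.0756 FPKM and Cd48, Gfi1b, Kit and Ptprc averaged under 0.05 FPKM. The cells are therefore named here by their groups. The 12 stem cell markers summed to 316 to 337 FPKM in OEA8_Ctrl, 202 to 214 in OEA8_67 and 214 to 224 in OEA8_69, of which Ly6a, Gata2, Cd34 and Runx1 made up nearly all. Ly6a and Cd34 were lower in both mutant groups. Gata2 was higher in both, by 0.20 in log2(FPKM + 1) (adjusted p = 0.0141 in limma) and 0.17 (adjusted p = 0.0306). Runx1 did not pass (adjusted p = 0.753 and 0.896). Of 11 tested fibroblast markers 5 were lower in OEA8_67 and 3 in OEA8_69 (45.5% and 27.3%, beside 4.66% and 5.24% of all genes tested). The 12 fibroblast markers summed to 6426 to 6809 FPKM in OEA8_Ctrl, 5973 to 6201 in OEA8_67 and 6360 to 6552 in OEA8_69. The 7 myeloid markers summed to 9.19 to 10.2 FPKM in OEA8_Ctrl, 7.56 to 8.32 in OEA8_67 and 6.95 to 7.61 in OEA8_69, with 1 listed at 0 throughout. S100a8 itself lay between 3.75 and 6.24 FPKM in all libraries with overlapping groups. Its mean of 5.14 FPKM was below the median of 8.83 FPKM of the 173 transporters, so the level gave no sign of strong overexpression in any group. No group was labelled as cells without a construct, so the overexpression could not be checked further. The mutated bases cannot be seen in a table of levels. Correlations of log2(FPKM + 1) over all 19240 genes, including those at 0, were 0.997 to 0.999 within groups and 0.996 to 0.998 between them. OEA8_Ctrl replicate 3 had the highest sum of all values, 501342 FPKM against 469909 to 492977 in the other libraries, and results that rested on it are given with and without it. The sum of 11 endothelial markers in the table was 62.7 to 63.5 FPKM in OEA8_Ctrl, 9.59 to 11.5 in OEA8_67 and 6.45 to 7.96 in OEA8_69. Of these markers 4 could be tested (Cdh5, Erg, Sox18 and Flt1). All 4 were lower in each mutant group (100%, beside 4.66% of all genes in OEA8_67 and 5.24% in OEA8_69). Tek and Tie1 averaged under 0.05 FPKM over all libraries. Some stem cell, endothelial, fibroblast and myeloid markers thus differed from OEA8_Ctrl, not all in the same direction. Their part in the transporter differences below was not tested. In bulk libraries fewer cells of a type and less RNA per cell cannot be told apart.

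Promoter sequence was available in RefSeq for 132 of the 173 transporters and for 11 of the 23 that differed in any comparison. The windows of 4 of these are shown because their genes carry main results below, Slc38a4 for amino acids, Slc27a1 for lipids, Slc20a1 for phosphate and Slc30a4 for zinc. Each window runs from 250 bases before to 50 bases after an annotated start site on build GRCm38.p6. For Slc38a4 (chr15:97055907-97056206, minus strand), Slc27a1 (chr8:71568621-71568920, plus strand) and Slc20a1 (chr2:129198523-129198822, plus strand), which have several annotated starts, the start farthest upstream was used, and Slc30a4 (chr2:122702614-122702913, minus strand) has 1. Capitals mark matches on either strand to TGCNCNC, a loose pattern used here for the metal response element, so a match need not be that element.
Slc38a4: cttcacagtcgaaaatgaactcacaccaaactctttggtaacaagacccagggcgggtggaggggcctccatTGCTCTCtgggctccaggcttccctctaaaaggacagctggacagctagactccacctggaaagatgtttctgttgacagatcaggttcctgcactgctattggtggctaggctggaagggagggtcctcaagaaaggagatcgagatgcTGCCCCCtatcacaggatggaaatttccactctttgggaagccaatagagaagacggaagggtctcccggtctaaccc
Slc27a1: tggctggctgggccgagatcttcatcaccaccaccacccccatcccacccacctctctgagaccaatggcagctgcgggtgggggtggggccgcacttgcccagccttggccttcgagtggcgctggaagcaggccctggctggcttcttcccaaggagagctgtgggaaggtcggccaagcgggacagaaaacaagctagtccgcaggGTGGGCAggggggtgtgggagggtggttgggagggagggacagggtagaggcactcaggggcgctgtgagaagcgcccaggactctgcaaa
Slc20a1: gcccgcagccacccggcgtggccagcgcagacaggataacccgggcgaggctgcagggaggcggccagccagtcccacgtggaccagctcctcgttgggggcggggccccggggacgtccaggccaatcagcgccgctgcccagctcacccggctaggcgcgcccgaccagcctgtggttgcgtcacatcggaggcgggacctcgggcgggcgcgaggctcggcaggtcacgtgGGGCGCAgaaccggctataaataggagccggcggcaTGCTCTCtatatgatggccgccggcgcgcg
Slc30a4: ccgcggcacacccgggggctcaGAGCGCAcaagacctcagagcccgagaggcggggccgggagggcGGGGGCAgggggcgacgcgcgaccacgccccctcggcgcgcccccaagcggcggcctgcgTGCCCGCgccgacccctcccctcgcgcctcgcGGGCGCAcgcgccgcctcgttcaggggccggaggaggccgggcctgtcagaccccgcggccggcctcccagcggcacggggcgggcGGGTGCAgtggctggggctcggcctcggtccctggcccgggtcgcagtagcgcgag
The Slc30a4 window held 5 matches, those of Slc38a4 and Slc20a1 held 2 each, and that of Slc27a1 held 1. The motif is short and degenerate, and 51.0% of all 32851 windows of this length held at least 1 match, as did 106 of the 180 windows of the transporters. None of the 4 windows shown held the amino acid response element TGATGNAA, the AP-1 motif TGANTCA or the ETS motif CCGGAAG, which were found in 4.0%, 7.8% and 8.9% of all windows. The GC box GGGCGG was found in 133 of the 180 transporter windows and in 35.7% of all windows. It occurs in the windows of Slc38a4, Slc20a1 and Slc30a4, where it is left in lower case. These are letter matches on both strands, not binding sites, and matches of different motifs may overlap.

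The 173 genes spanned 1.08 to 418 FPKM with a median of 8.83 FPKM. Together they made up 0.767% to 0.806% of the summed FPKM of a library, and none was at 0 in any library. By substrate, 27 genes were assigned to amino acids, 9 to glucose and other sugars, 24 to metals, 6 to lipids, 22 to inorganic ions, 36 to mitochondrial carriers, 19 to nucleotide sugars, 3 to organic acids, and 21 to vitamins, nucleosides and organic ions. No substrate was assigned to 5 genes, and Slc49a4 (8.63 FPKM) was in no class. FPKM is scaled by gene length, so levels can be set side by side between genes. The 3 highest genes were carriers of the inner mitochondrial membrane, namely the ADP/ATP exchanger Slc25a4 with a mean of 418 ± 18.1 FPKM (SD, n = 9), the phosphate carrier Slc25a3 with 321 ± 13.5 FPKM and the second exchanger Slc25a5 with 265 ± 8.69 FPKM. The SDs of these 3 genes do not bridge the steps between them.

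**Figure D1:**
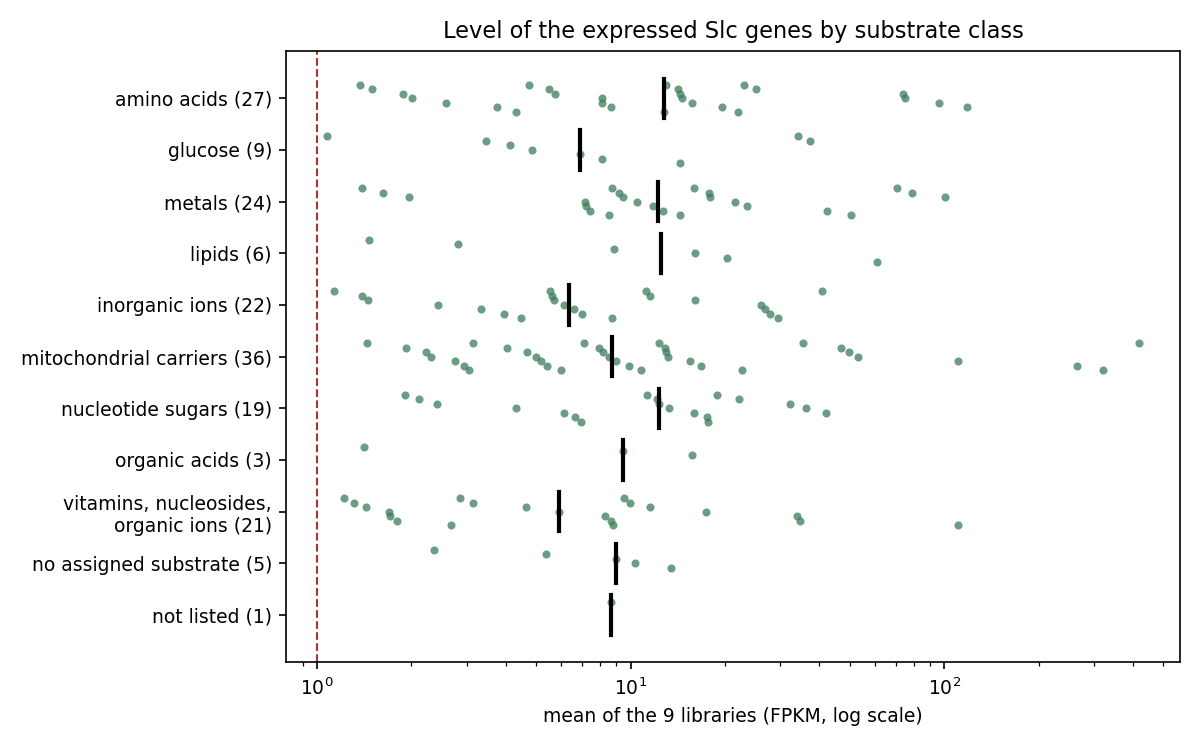
Mean level over the 9 libraries (FPKM, log scale) of each of the 173 expressed Slc genes, with one row a substrate class and the number of genes in parentheses. Points are genes, black bars are class medians and the dashed line is the 1 FPKM threshold. The 3 mitochondrial carriers Slc25a4, Slc25a3 and Slc25a5 stand above all other genes.

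At the cell surface, the highest amino acid gene was Slc3a2 (118 FPKM), the heavy chain that anchors several amino acid exchangers, followed by the taurine transporter Slc6a6 (96.2 FPKM), the neutral amino acid transporter Slc38a2 (75.2 FPKM) and its relative Slc38a10 (73.8 FPKM). Among sugar transporters, the sugar facilitator Slc50a1 (37.3 FPKM) and the glucose facilitator Slc2a1 (34.3 FPKM) were highest, and the difference between these neighbours is smaller than the SD of 3.77 FPKM for Slc50a1. They were followed by Slc37a3 (14.4 FPKM), a relative of the glucose-6-phosphate carrier, and the intracellular glucose transporter Slc2a8 (8.13 FPKM). The metal class was led by the heme transporter Slc48a1 (100.3 FPKM) and the zinc importers Slc39a7 (79.0 FPKM), Slc39a1 (70.9 FPKM) and Slc39a13 (50.5 FPKM). The lipid class was led by the choline transporter-like genes Slc44a2 (60.9 FPKM) and Slc44a1 (20.2 FPKM) and the fatty acid transport proteins Slc27a1 (16.1 FPKM) and Slc27a4 (8.83 FPKM). In the remaining classes the highest genes were the anion exchanger Slc4a2 (40.8 FPKM) and the potassium-chloride cotransporter Slc12a4 (29.5 FPKM), Slc35b2 (41.9 FPKM), which imports activated sulfate into the Golgi, and Slc35b1 (36.2 FPKM), the lactate transporter Slc16a1 (15.7 FPKM) and the sialic acid exporter Slc17a5 (9.48 FPKM), the nucleoside transporter Slc29a1 (111 FPKM), and Slc10a3 (13.5 FPKM) and Slc10a7 (10.4 FPKM). These levels chose the genes and carry no test. Just inside the threshold were the organic ion family gene Slc22a15 (1.22 FPKM), Slc4a11 (1.13 FPKM) and the myo-inositol transporter Slc2a13 (1.08 FPKM), and just outside it were the sodium-proton exchanger Slc9a9 (0.982 FPKM), the cystine transporter Slc7a11 (0.946 FPKM) and the vesicular amine transporter Slc18a2 (0.761 FPKM). Of the 180 genes below it, 13 were listed at 0 in every library.

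Few transporters differed between groups, and by small amounts. In OEA8_67 against OEA8_Ctrl 10 of the 173 genes passed (adjusted p under 0.05 in limma, fitted over the 12012 genes averaging 0.5 FPKM or more), 5 higher and 5 lower, which is 5.78% of the transporters against 7.88% of all genes tested. Over all genes 3.21% were higher and 4.66% lower. Under median-of-ratios scaling 4 transporters were higher and 9 lower in this comparison, with 2.43% of all genes higher and 5.43% lower. In OEA8_69 against OEA8_Ctrl 21 passed, 9 higher and 12 lower, or 12.1% against a background of 9.79%, with 4.55% of all genes higher and 5.24% lower. Both comparisons use the same OEA8_Ctrl libraries. Between the mutants, in OEA8_69 against OEA8_67, 2 transporters passed and both were lower, 1.16% against a background of 3.16%, of which 1.89% of genes were higher and 1.27% lower. At an unadjusted p under 0.05 the numbers of transporters were 31, 44 and 25, and the share over all genes was not computed at this level. The transporter shares are near or below the background, and no excess of changed transporters is read from them. The median absolute difference in log2(FPKM + 1) was 0.06 over the transporters and 0.08 over all genes in OEA8_67, 0.08 in both for OEA8_69, and 0.07 in both between the mutants. An absolute difference of at least 0.5 was reached by 2, 3 and 0 transporters in the 3 comparisons. It was not counted over all genes, so nothing particular to transporters is read from it.

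The number of calls moved with single libraries, as did the share of all genes called. Without OEA8_67 replicate 2, 6 transporters passed in OEA8_67 (3.47%, beside 3.8% of all genes). Without OEA8_Ctrl replicate 1, 12 passed in OEA8_69 (6.94%, beside 6.7%). Without OEA8_Ctrl replicate 3 the numbers were 13, 29 and 12 (7.51%, 16.8% and 6.94%, beside 7.67%, 14.9% and 8.61% of all genes). Between the mutants 1 transporter (0.578%) passed without OEA8_Ctrl replicate 1 or without any 1 of the 6 mutant libraries. The share of all genes in these fits was 1.02% to 2.11%. Groups whose 3 libraries do not overlap were found for 42 transporters (24.3%) in OEA8_67 against OEA8_Ctrl, where 28.2% of all genes did so, for 44 (25.4%) in OEA8_69, against 27.5%, and for 52 (30.1%) between the mutants, against 31.6%.

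**Figure D2:**
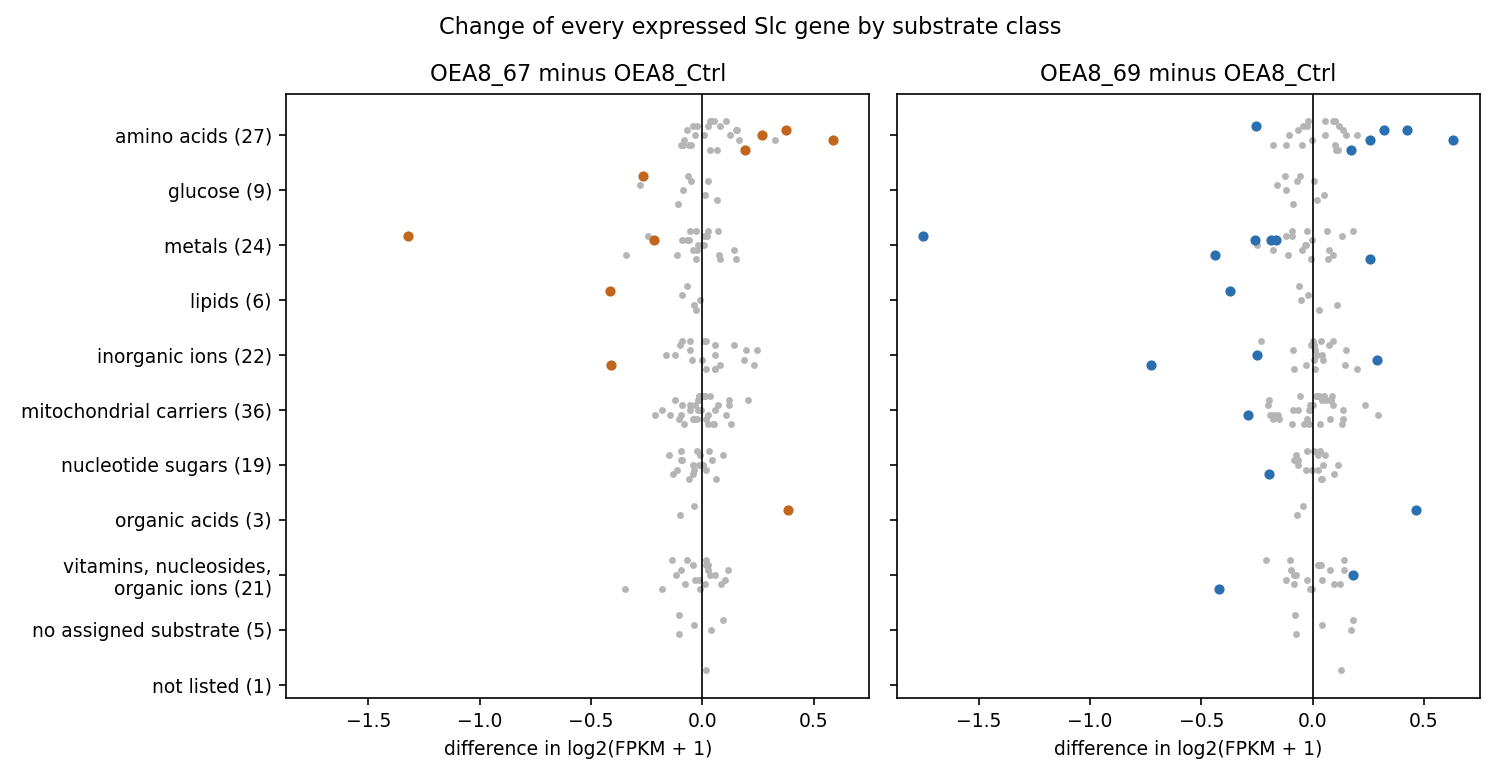
Difference in log2(FPKM + 1) of each of the 173 expressed Slc genes in OEA8_67 (left) and OEA8_69 (right) against OEA8_Ctrl, by substrate class with the number of genes in parentheses. Coloured points are the 10 and 21 genes with an adjusted p under 0.05, grey points the others. Slc39a4 lies farthest below 0 in both panels, and Slc38a4 farthest above.

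Of 27 amino acid transporters, 4 were higher and 0 lower in OEA8_67, and 5 were higher and 1 lower in OEA8_69. The higher genes are 14.8% and 18.5% of the class, beside 3.21% and 4.55% of all genes, and the difference between these shares was not tested. The median difference of the class was 0.04 in OEA8_67 and 0.10 in OEA8_69, against 0.02 over all genes in each. The summed level of the class was 573 ± 0.831 FPKM (SD, n = 3) in OEA8_Ctrl, 604 ± 6.64 in OEA8_67 and 611 ± 10.1 in OEA8_69, and the control libraries (573 to 574 FPKM) lay below every mutant library (596 to 622 FPKM). This gap lies in the 7 called genes, which summed to 173, 203 and 204 FPKM on average in the 3 groups, while the other 20 genes summed to 401, 401 and 407 FPKM with overlapping libraries. The number of higher calls moved with single libraries, as did the share of all genes higher. In OEA8_67 it ranged from 2 without OEA8_67 replicate 2 (beside 1.04% of all genes) to 6 without OEA8_Ctrl replicate 2 (3.9%). In OEA8_69 it ranged from 3 without OEA8_69 replicate 3 (2.44%) to 6 without OEA8_Ctrl replicate 2 (3.5%) or 3 (7.93%).

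Slc38a4 (chromosome 15, 96994816 to 97055956, GRCm38) had the largest increase of any expressed transporter in both comparisons. It encodes a sodium-coupled transporter of small neutral amino acids and is expressed from the paternal allele in mouse. Its level was 10.10, 11.06 and 10.07 FPKM in OEA8_Ctrl, 16.37, 15.68 and 16.40 in OEA8_67, and 16.82, 17.14 and 16.05 in OEA8_69. All 6 mutant libraries were higher than all controls, and the mutants overlapped. The difference in log2(FPKM + 1) was 0.59 (SE 0.05, adjusted p = 1.92e-05) in OEA8_67 and 0.63 (SE 0.05, adjusted p = 7.17e-06) in OEA8_69. The difference stayed between 0.57 and 0.67 under every alternative tried.

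Slc7a2 (chromosome 8, 40862341 to 40922070) encodes an importer of arginine and lysine. It was at 10.46, 11.41 and 9.20 FPKM in OEA8_Ctrl, at 13.28, 14.03 and 13.73 in OEA8_67 and at 15.16, 13.15 and 14.37 in OEA8_69. Both mutant groups lay above the controls, by 0.37 (SE 0.07, adjusted p = 0.00862) and 0.43 (SE 0.07, adjusted p = 0.00291) in log2(FPKM + 1), and each call was kept with any library left out. In the annotation, 7.0% of its exon bases are shared with a noncoding gene on the opposite strand, Gm26584.

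Slc6a6, the taurine transporter, showed a smaller increase from a high level. It measured 89.66, 86.74 and 88.02 FPKM in OEA8_Ctrl, 97.32, 102.25 and 103.40 in OEA8_67, and 100.32, 97.34 and 101.01 in OEA8_69. The groups did not overlap with the control, and the differences were 0.19 (SE 0.04, adjusted p = 0.0105) and 0.17 (SE 0.04, adjusted p = 0.0143). Without OEA8_67 replicate 2 or 3 the adjusted p in OEA8_67 was 0.0536 or 0.0553, and without OEA8_69 replicate 1 or 3 that in OEA8_69 was 0.0646 or 0.0625.

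Slc7a5, the large neutral amino acid exchanger and a light chain that pairs with Slc3a2, was at 19.27, 20.44 and 18.96 FPKM in OEA8_Ctrl, 23.96, 25.80 and 21.75 in OEA8_67, and 20.26, 23.55 and 24.26 in OEA8_69. It passed in OEA8_67 (0.27, SE 0.07, adjusted p = 0.0446) and not in OEA8_69 (adjusted p = 0.112). The call is near the threshold and was lost without OEA8_Ctrl replicate 1 or 3, OEA8_67 replicate 1 or 2 or OEA8_69 replicate 2, with adjusted p from 0.0595 to 0.169, as well as under median-of-ratios scaling (0.0580), without a trend in the moderation (0.0639) and without a filter on low values (0.130).

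Slc7a6, another light chain, exchanges cationic against neutral amino acids. It was at 21.95, 24.23 and 21.61 FPKM in OEA8_Ctrl, 25.69, 24.41 and 26.32 in OEA8_67 and 27.82, 25.60 and 28.09 in OEA8_69. It passed in OEA8_69 (0.26, SE 0.06, adjusted p = 0.0124) and not in OEA8_67 (adjusted p = 0.0890). Leaving out OEA8_Ctrl replicate 1 or OEA8_69 replicate 1 or 3 gave adjusted p of 0.0515, 0.0563 or 0.0559. Slc3a2 itself was at 107.45 to 127.41 FPKM in OEA8_Ctrl, 113.07 to 120.04 in OEA8_67 and 121.92 to 125.89 in OEA8_69, and passed in neither (adjusted p = 0.809 and 0.241). Of other light chains, Slc7a7 (2.57 FPKM, adjusted p = 0.694 and 0.475) and Slc7a11, under the threshold (0.610 and 0.759), did not pass.

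The remaining amino acid calls belonged to OEA8_69. Slc1a3, a glutamate and aspartate transporter best known from glia, was at 13.67, 12.60 and 12.56 FPKM in OEA8_Ctrl, 14.47, 13.90 and 15.10 in OEA8_67 and 16.68, 16.43 and 16.08 in OEA8_69. The OEA8_69 libraries were above all others, and the difference from OEA8_Ctrl was 0.32 (SE 0.05, adjusted p = 0.00169), kept with any library left out. In OEA8_67 the adjusted p was 0.0870, and between the mutants it was 0.0953.

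Slc38a1, a sodium-coupled transporter of glutamine and other neutral amino acids, was the amino acid transporter that fell. Its level was 8.77, 8.99 and 8.29 FPKM in OEA8_Ctrl, 8.80, 8.61 and 8.16 in OEA8_67 and 6.96, 7.05 and 7.32 in OEA8_69. OEA8_69 lay below both other groups, by -0.26 (SE 0.05, adjusted p = 0.00975) against OEA8_Ctrl and by -0.23 (SE 0.05, adjusted p = 0.0397) against OEA8_67. The first was kept with any library left out. The second was lost without OEA8_Ctrl replicate 1 (adjusted p = 0.0590) and without any 1 of the mutant libraries (adjusted p 0.0780 to 0.146). Its relative Slc38a2 was at 72.52 to 80.47 FPKM in OEA8_Ctrl, 74.85 to 77.93 in OEA8_67 and 71.69 to 72.72 in OEA8_69 and did not pass (adjusted p = 0.704 and 0.171). Slc38a10 did not pass either (adjusted p = 0.255 and 0.299).

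**Figure D3:**
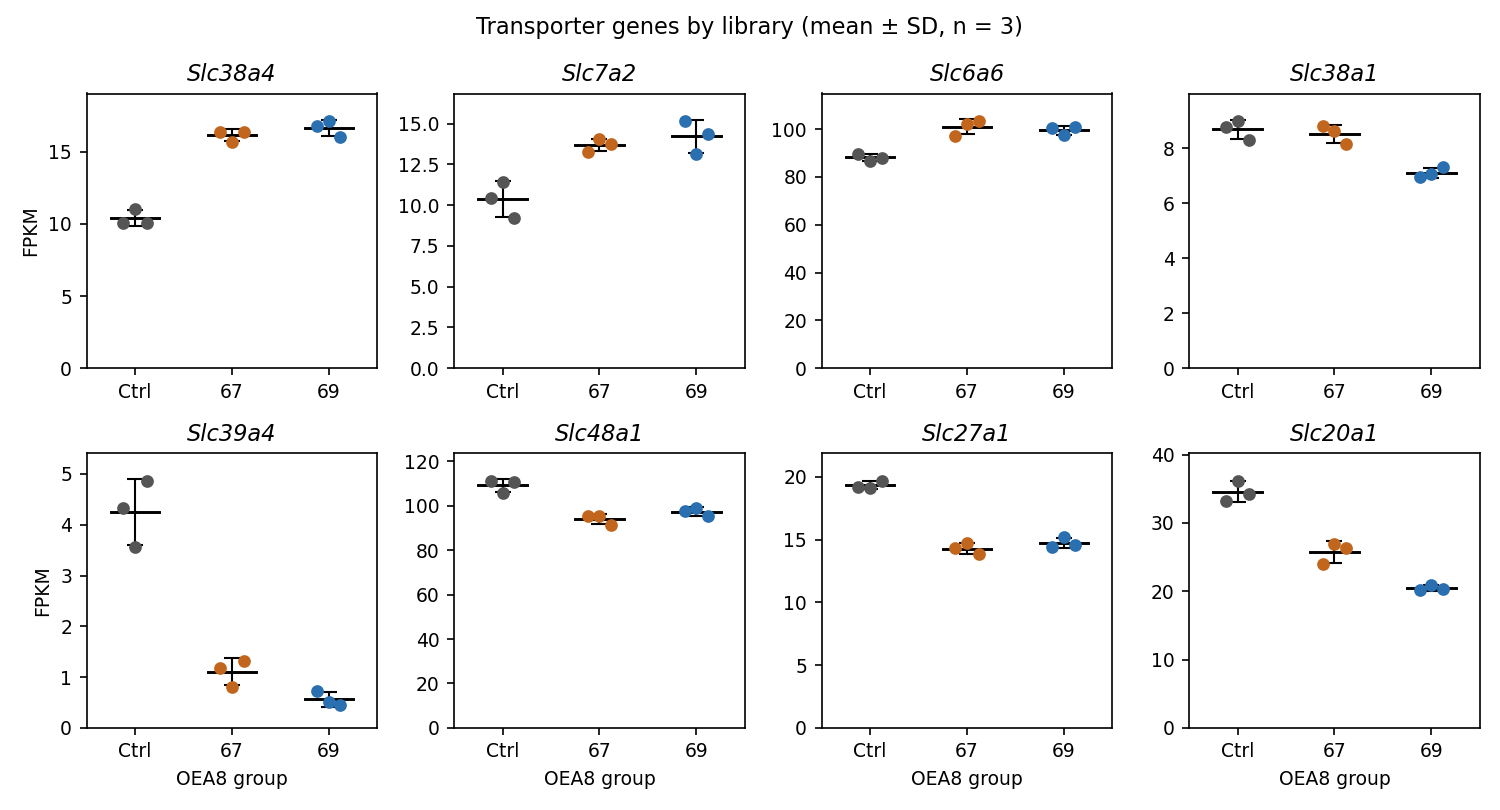
FPKM of 8 transporter genes in each library, by group (OEA8_Ctrl, OEA8_67, OEA8_69). Points are libraries, horizontal bars are means and error bars SD (n = 3), with axes starting at 0. Slc38a4, Slc7a2 and Slc6a6 are higher in both mutants, Slc39a4, Slc48a1, Slc27a1 and Slc20a1 are lower in both, and Slc38a1 is lower in OEA8_69.

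A list of 23 genes of the amino acid response outside the transporters holds stress-induced regulators and enzymes of amino acid synthesis, all of which were tested. In OEA8_67, 2 were higher (8.7%, beside 3.21% of all genes) and 1 lower (4.35%, beside 4.66%), and in OEA8_69, 1 was higher and 1 lower (4.35% each, beside 4.55% and 5.24%). Asparagine synthetase, Asns, was at 49.13 to 53.88 FPKM in OEA8_Ctrl, 59.77 to 62.91 in OEA8_67 and 59.01 to 60.21 in OEA8_69, higher by 0.24 (adjusted p = 0.00567) and 0.20 (adjusted p = 0.0105) and kept with any library left out. Psat1, an enzyme of serine synthesis, was higher in OEA8_67 (0.16, adjusted p = 0.0363), which was lost without OEA8_Ctrl replicate 1, any OEA8_67 library or OEA8_69 replicate 1 or 3 (adjusted p up to 0.128). The stress-induced factor Atf5 was lower in OEA8_67 (-0.21, adjusted p = 0.0279), lost without OEA8_Ctrl replicate 3 or OEA8_67 replicate 2 or 3 (adjusted p up to 0.112). Phgdh, which opens serine synthesis, was lower in OEA8_69 (-0.19, adjusted p = 0.00949), and without OEA8_69 replicate 1 its adjusted p was 0.0549. In the fit of the compared groups alone the adjusted p of Psat1 and Atf5 were 0.0764 and 0.0626.

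Of 24 metal transporters, 0 were higher and 2 lower in OEA8_67, and 1 was higher and 5 lower in OEA8_69. The lower genes are 8.33% and 20.8% of the class, beside 4.66% and 5.24% of all genes. The class median was -0.02 in OEA8_67 and -0.04 in OEA8_69. Summed over the class, the level was 569 ± 3.42 FPKM in OEA8_Ctrl (566 to 573), 542 ± 2.10 in OEA8_67 (540 to 544) and 544 ± 3.45 in OEA8_69 (540 to 546), with all mutant libraries below all controls. Most of the gap lies in the 6 called genes, with means of 168, 149 and 149 FPKM in the 3 groups, and Slc48a1 alone fell from 109 to 94.0 and 97.4 FPKM. The other 18 genes summed to 398 to 407 FPKM in OEA8_Ctrl, 391 to 395 in OEA8_67 and 393 to 397 in OEA8_69. The number of lower calls in OEA8_69 depended on single libraries, as did the share of all genes lower. It ranged from 2 without OEA8_Ctrl replicate 1 (beside 3.85% of all genes) to 6 without OEA8_Ctrl replicate 3 (7.01%). It was 3 without OEA8_Ctrl replicate 2 (4.61%) or any OEA8_69 library (3.68% to 4.22%). In OEA8_67 it was 4 under median-of-ratios scaling, beside 5.43% of all genes.

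Slc39a4 (chromosome 15, 76612383 to 76618506) showed the largest difference of any expressed transporter. It encodes a zinc importer of the cell surface that is needed for uptake of dietary zinc in the intestine. Its level was 4.32, 3.57 and 4.87 FPKM in OEA8_Ctrl, 1.18, 0.81 and 1.32 in OEA8_67 and 0.73, 0.50 and 0.45 in OEA8_69. The controls lay above all mutant libraries, and OEA8_69 lay below OEA8_67. The difference in log2(FPKM + 1) was -1.32 (SE 0.12, adjusted p = 2.10e-05) in OEA8_67 and -1.75 (SE 0.12, adjusted p = 1.39e-06) in OEA8_69, a scale that understates changes of genes this low. Both calls were kept with any library left out. Between the mutants the adjusted p was 0.0709. Its mean was 4.25 FPKM in OEA8_Ctrl, 1.10 in OEA8_67 and 0.56 in OEA8_69, the last under 1 FPKM. Its place among the members therefore rested largely on the control group, where it was higher.

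Slc48a1, which carries heme from lysosomes to the cytosol, was the most abundant metal transporter and fell by a small amount. It was at 111.37, 105.94 and 110.69 FPKM in OEA8_Ctrl, 95.23, 95.55 and 91.33 in OEA8_67 and 97.83, 99.21 and 95.25 in OEA8_69. The controls did not overlap with either mutant, and the differences were -0.22 (SE 0.04, adjusted p = 0.00599) and -0.16 (SE 0.04, adjusted p = 0.0200). The first was kept with any library left out, whereas the second had adjusted p of 0.0745, 0.0681 and 0.0862 without OEA8_Ctrl replicate 1, OEA8_69 replicate 1 and OEA8_69 replicate 3, and of 0.0580 in the fit of the compared groups alone. A stretch of 1.1% of its exon bases is shared with Hdac7 on the opposite strand.

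Zinc and iron genes made up the other metal calls, all in OEA8_69. Slc30a4, a zinc transporter that loads vesicles, was at 19.58, 20.37 and 17.87 FPKM in OEA8_Ctrl, 18.18, 17.85 and 19.33 in OEA8_67 and 16.36, 15.68 and 15.72 in OEA8_69. OEA8_69 was below the other groups, and the difference from OEA8_Ctrl was -0.26 (SE 0.05, adjusted p = 0.0104), kept with any library left out. In OEA8_67 the adjusted p was 0.540.

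The zinc importer Slc39a6 was at 19.57, 19.60 and 18.09 FPKM in OEA8_Ctrl, 17.40, 17.68 and 18.50 in OEA8_67 and 17.41, 16.14 and 16.30 in OEA8_69, lower in OEA8_69 by -0.19 (SE 0.05, adjusted p = 0.0343). With 1 library left out this call was kept without OEA8_Ctrl replicate 3, OEA8_67 replicate 3 or OEA8_69 replicate 1 and lost otherwise, with an adjusted p up to 0.119 without OEA8_69 replicate 2. It was also lost without a filter on low values (0.0519) and in the fit of the compared groups alone (0.0767). Slc39a14, an importer of zinc, iron and manganese, moved the other way, from 14.19, 15.69 and 13.18 FPKM in OEA8_Ctrl to 18.65, 16.47 and 16.98 in OEA8_69, with 16.18, 16.23 and 15.68 in OEA8_67. Its difference was 0.26 (SE 0.06, adjusted p = 0.0244) in OEA8_69, lost without OEA8_Ctrl replicate 1 (adjusted p = 0.0746) or OEA8_69 replicate 1 (0.108) or 3 (0.0558), without a filter (0.0727) and in the fit of the compared groups (0.0614).

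Slc40a1, ferroportin, the iron exporter, was near the threshold. It was at 2.05, 2.04 and 1.45 FPKM in OEA8_Ctrl, 1.5, 1.10 and 1.12 in OEA8_67 and 1.06, 1.07 and 1.15 in OEA8_69. OEA8_69 lay below the controls, by -0.44 (SE 0.10, adjusted p = 0.0155), and OEA8_67 overlapped with them (adjusted p = 0.0547). Adjusted p in OEA8_69 were 0.0663 and 0.0572 without OEA8_Ctrl replicates 1 and 2, 0.0556 and 0.0539 without OEA8_69 replicates 1 and 2, and 0.0582 without a filter. Slc39a8, a zinc importer under the threshold with a mean of 0.643 FPKM, was at 1.06, 0.95 and 0.87 FPKM in OEA8_Ctrl, 0.49, 0.44 and 0.76 in OEA8_67 and 0.40, 0.49 and 0.33 in OEA8_69. It was lower in both, by -0.33 (SE 0.09, adjusted p = 0.0464) and -0.48 (SE 0.09, adjusted p = 0.00574). Its mean was 0.960 FPKM in OEA8_Ctrl, 0.563 in OEA8_67 and 0.407 in OEA8_69, so it passed the 0.5 FPKM filter largely through the control group. These calls of Slc39a8 were not checked with single libraries left out. Iron import into mitochondria is the role of Slc25a37, mitoferrin, which is counted among the mitochondrial carriers. It was at 17.84, 17.76 and 16.09 FPKM in OEA8_Ctrl, 15.43, 16.02 and 14.98 in OEA8_67 and 13.98, 14.09 and 13.55 in OEA8_69. It passed in OEA8_69 (-0.29, SE 0.05, adjusted p = 0.00359), also with any library left out, and not in OEA8_67 (adjusted p = 0.108).

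The abundant zinc genes Slc39a7, Slc39a1 and Slc39a13 did not pass. Slc39a7, the importer that releases zinc from the endoplasmic reticulum, was at 76.13 to 85.76 FPKM in OEA8_Ctrl, 75.84 to 82.29 in OEA8_67 and 76.72 to 78.95 in OEA8_69. Of 15 tested genes of metal handling that are not solute carriers, 1 was higher and 1 lower in OEA8_67 (6.67% each, beside 3.21% and 4.66% of all genes), and 1 was higher and 0 lower in OEA8_69 (6.67%, beside 4.55%). The metal-binding protein gene Mt2 was lower in OEA8_67 (-0.29, adjusted p = 0.0264), but not without OEA8_Ctrl replicate 1 or 3 or any OEA8_67 library (adjusted p up to 0.111). The transferrin receptor Tfrc was higher in OEA8_67 (0.29, adjusted p = 0.0352), which was lost without OEA8_Ctrl replicate 1 or 3, any OEA8_67 library or OEA8_69 replicate 1 (up to 0.112), and was lower in OEA8_69 than in OEA8_67 (-0.34, adjusted p = 0.0371), lost without OEA8_Ctrl replicate 1 or any mutant library (up to 0.130). The ferrireductase Steap3 was higher in OEA8_69 (0.21, adjusted p = 0.0293), lost without OEA8_Ctrl replicate 1 or 2 or OEA8_69 replicate 1 or 2 (up to 0.116). Without a filter the adjusted p were 0.0966 for Mt2, 0.0943 and 0.108 for Tfrc and 0.0683 for Steap3.

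**Figure D4:**
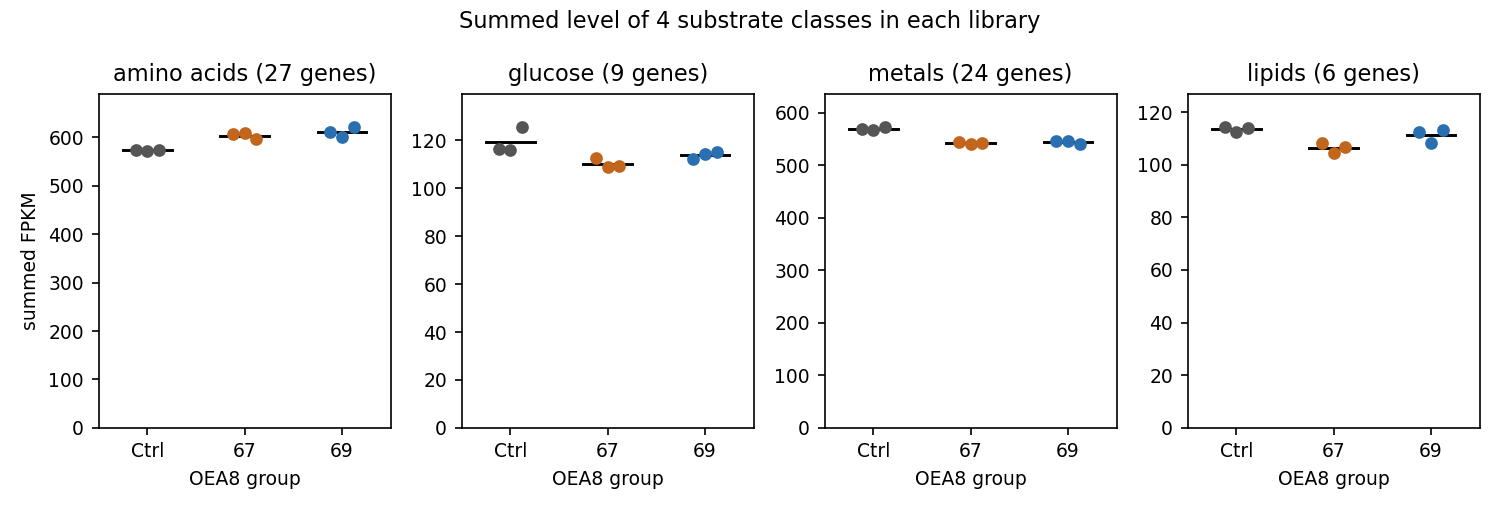
Summed FPKM of the amino acid (27 genes), glucose (9), metal (24) and lipid (6) transporters in each library, by group. Points are libraries and bars group means, with axes starting at 0. The amino acid sum is 573 to 574 FPKM in the controls and 596 to 622 in the mutants, and the metal sum 566 to 573 and 540 to 546.

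Sugar transporters showed 1 call. Of 9 genes, 0 were higher and 1 lower in OEA8_67 (11.1%, beside 4.66% of all genes), and none passed in OEA8_69. The class median was -0.06 in OEA8_67 and -0.07 in OEA8_69, and the summed level was 119 ± 5.41 FPKM in OEA8_Ctrl (116 to 126), 110 ± 2.21 in OEA8_67 (109 to 113) and 114 ± 1.46 in OEA8_69 (112 to 115). Slc50a1 was at 38.75, 37.29 and 44.66 FPKM in OEA8_Ctrl, 33.25, 32.73 and 33.49 in OEA8_67 and 37.94, 38.83 and 38.99 in OEA8_69. It was lower in OEA8_67 by -0.27 (SE 0.06, adjusted p = 0.0160), and its adjusted p was 0.608 in OEA8_69 and 0.0718 between the mutants. Without OEA8_67 replicate 2 the adjusted p was 0.0687 and without a filter on low values it was 0.0566, while without the high OEA8_Ctrl replicate 3 the call was kept. In that last fit 2 sugar genes were lower in OEA8_67 and 1 in OEA8_69, beside 4.16% and 7.01% of all genes.

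Slc2a1, the main glucose importer of most cultured cells, did not pass in either comparison. It was at 35.23, 34.56 and 37.67 FPKM in OEA8_Ctrl, 35.23, 34.22 and 33.12 in OEA8_67 and 32.36, 33.15 and 32.90 in OEA8_69, with adjusted p of 0.390 and 0.108. Slc37a3 (adjusted p = 0.466 and 0.869) and Slc2a8 (0.911 and 0.658) did not pass either. Of 17 genes of glucose use, 1 was higher and 3 lower in OEA8_67, and 0 were higher and 5 lower in OEA8_69. The lower genes are 17.6% and 29.4% of the list, beside 4.66% and 5.24% of all genes, and the difference between these shares was not tested. Txnip, an inhibitor of glucose uptake, was at 27.25 to 29.46 FPKM in OEA8_Ctrl and 23.09 to 24.09 in OEA8_67, lower by -0.24 (adjusted p = 0.00613). Pfkl, a phosphofructokinase of glycolysis, was at 52.81 to 55.80 FPKM in OEA8_Ctrl and 45.74 to 46.95 in OEA8_69, lower by -0.21 (adjusted p = 0.00484). These calls were kept with any library left out. G6pc3, a glucose-6-phosphatase, was lower in OEA8_67 (-0.24, adjusted p = 0.0187) and OEA8_69 (-0.19, adjusted p = 0.0376), the first lost without OEA8_67 replicate 1 or 3 (up to 0.0805) and the second without any 1 of the mutant libraries (up to 0.104). The glycolytic aldolase Aldoa was lower in OEA8_69 (-0.19, adjusted p = 0.0355), lost without OEA8_Ctrl replicate 1 or any mutant library (up to 0.126). The remaining lower genes of the list in OEA8_69 kept their call in 1 and 3 of 9 fits with 1 library left out, and the remaining lower gene in OEA8_67 in 2 of 9. In the fit of the compared groups alone the adjusted p were 0.0512 and 0.0818 for G6pc3 and 0.0985 for Aldoa.

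Among lipid transporters Slc27a1 (chromosome 8, 71568728 to 71587307) was the gene that changed. It encodes a fatty acid transport protein with acyl-CoA synthetase activity. Its level was 19.21, 19.07 and 19.70 FPKM in OEA8_Ctrl, 14.33, 14.69 and 13.82 in OEA8_67 and 14.38, 15.19 and 14.58 in OEA8_69. The controls were tightly grouped above all mutant libraries, and the mutants overlapped. The difference was -0.41 (SE 0.04, adjusted p = 0.000130) in OEA8_67 and -0.37 (SE 0.04, adjusted p = 0.000219) in OEA8_69, and both were kept under every alternative tried. Slc27a1 is 16.7% of the 6 lipid genes, beside 4.66% and 5.24% of all genes lower in OEA8_67 and OEA8_69. Of the other 5 genes none passed, among them Slc44a2 (adjusted p = 0.753 and 0.765), Slc44a1 (0.7 and 0.2) and Slc27a4 (0.913 and 0.575). Summed, the class was at 114 ± 1.09 FPKM in OEA8_Ctrl, 106 ± 1.90 in OEA8_67 and 111 ± 2.62 in OEA8_69, and OEA8_69 overlapped with the control.

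In the list of lipid uptake and use, 16 genes could be tested, of which 3 were higher and 0 lower in OEA8_67, and 2 were higher and 1 lower in OEA8_69. The higher genes are 18.8% and 12.5% of the list, beside 3.21% and 4.55% of all genes, a difference that was not tested. Acsl1, an acyl-CoA synthetase, was at 12.98 to 14.10 FPKM in OEA8_Ctrl, 14.89 to 16.80 in OEA8_67 and 15.98 to 16.92 in OEA8_69. It was higher by 0.21 (adjusted p = 0.0433) and 0.29 (adjusted p = 0.00665), the first lost on leaving out any library but OEA8_Ctrl replicate 1 (up to 0.162) and the second kept throughout. Its relative Acsl4 was higher in OEA8_67 (0.23, adjusted p = 0.0308), lost without OEA8_Ctrl replicate 1 or 3 or any OEA8_67 library (up to 0.118). Acsl5 was lower in OEA8_69 (-0.18, adjusted p = 0.0420), lost without all but OEA8_Ctrl replicate 3 or OEA8_67 replicate 2 (up to 0.153). Chpt1, a phosphatidylcholine synthesis gene, was higher in OEA8_67 (0.23, adjusted p = 0.0434) and OEA8_69 (0.22, adjusted p = 0.0424), both lost on leaving out any library but OEA8_Ctrl replicate 2 (up to 0.144). In the fit of the compared groups alone the adjusted p in OEA8_67 were 0.0886 for Acsl1, 0.0700 for Acsl4 and 0.0853 for Chpt1, and in OEA8_69 0.0768 for Acsl5 and 0.0827 for Chpt1.

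Of 22 inorganic ion transporters, Slc20a1 (chromosome 2, 129198773 to 129211615) differed in all 3 comparisons. It encodes a sodium-phosphate cotransporter that supplies cells with phosphate and also serves as a receptor for some retroviruses. Its level was 33.18, 36.20 and 34.20 FPKM in OEA8_Ctrl, 23.93, 26.91 and 26.36 in OEA8_67 and 20.14, 20.89 and 20.37 in OEA8_69. The groups formed 3 separate steps without overlap. The differences were -0.41 (SE 0.05, adjusted p = 0.000459) in OEA8_67, -0.73 (SE 0.05, adjusted p = 2.63e-06) in OEA8_69 and -0.31 (SE 0.05, adjusted p = 0.00794) between the mutants, and each was kept with any library left out and under every other alternative. Its paralog Slc20a2 was at 27.81 to 28.39 FPKM in OEA8_Ctrl, 28.48 to 30.01 in OEA8_67 and 25.70 to 27.52 in OEA8_69 and did not pass (adjusted p = 0.414 and 0.246). In the annotation 8.1% of the exon bases of Slc20a1 are shared with the noncoding gene 9830144P21Rik and 5.0% with Gm4430, both on the opposite strand.

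Slc8b1, the sodium-calcium exchanger of mitochondria, was at 5.13, 5.07 and 4.83 FPKM in OEA8_Ctrl, 4.67, 4.07 and 4.39 in OEA8_67 and 4.35, 3.77 and 4.04 in OEA8_69. It was lower in OEA8_69 (-0.25, SE 0.07, adjusted p = 0.0309), which was lost without OEA8_Ctrl replicate 1 (adjusted p = 0.101) or 2 (0.0758) or OEA8_69 replicate 2 (0.118) or 3 (0.0861), without a filter (0.0560) and in the fit of the compared groups (0.0562). Slc4a11, a transporter related to bicarbonate carriers, was at 0.96, 0.85 and 0.90 FPKM in OEA8_Ctrl, 1.08, 1.31 and 1.11 in OEA8_67 and 1.30, 1.24 and 1.43 in OEA8_69. It was higher in OEA8_69 (0.29, SE 0.07, adjusted p = 0.0253), lost without OEA8_Ctrl replicate 1 (0.0501) or 2 (0.0744) or OEA8_69 replicate 1 (0.0698) or 3 (0.0966). Its control mean of 0.903 FPKM is under 1 FPKM, so it was a member through the mutant groups, where it was higher. Over the 22 ion transporters, 1 was lower in OEA8_67 (4.55%, beside 4.66% of all genes). In OEA8_69, 1 was higher (4.55%, beside 4.55%) and 2 were lower (9.09%, beside 5.24%). The most abundant ion transporters did not pass, with adjusted p of 0.252 and 0.685 for Slc4a2 and 0.497 and 0.948 for Slc12a4.

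The class with the highest levels held 1 call. Of 36 mitochondrial carriers only Slc25a37, described with the iron genes, passed, lower in OEA8_69 (2.78%, beside 5.24% of all genes). Slc25a4 was at 397.91 to 432.63 FPKM in OEA8_Ctrl, 393.84 to 414.76 in OEA8_67 and 427.77 to 444.14 in OEA8_69 (adjusted p = 0.912 and 0.267), and Slc25a3 had adjusted p of 0.687 and 0.820. Of 19 nucleotide sugar transporters 1 passed, lower in OEA8_69 (5.26%, beside 5.24% of all genes). Slc35b1, whose human counterpart exchanges ATP and ADP across the endoplasmic reticulum membrane, was at 38.89, 38.07 and 40.31 FPKM in OEA8_Ctrl, 34.96, 36.53 and 35.39 in OEA8_67 and 34.71, 33.60 and 33.70 in OEA8_69. OEA8_69 was lower than OEA8_Ctrl (-0.20, SE 0.04, adjusted p = 0.00914), also with any library left out, and in OEA8_67 the adjusted p was 0.0693. Slc35b2 did not pass (0.465 and 0.654).

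Among 3 organic acid transporters Slc16a9, a monocarboxylate transporter family member, was higher in both mutants (33.3% of the class, beside 3.21% and 4.55% of all genes). It was at 0.97, 1.26 and 0.69 FPKM in OEA8_Ctrl, 1.55, 1.60 and 1.52 in OEA8_67 and 1.63, 1.94 and 1.55 in OEA8_69. All mutant libraries lay above the controls, and the differences were 0.38 (SE 0.10, adjusted p = 0.0382) and 0.46 (SE 0.10, adjusted p = 0.0122). In OEA8_67 the call was lost without OEA8_Ctrl replicate 1 or 3, any OEA8_67 library or OEA8_69 replicate 1 (adjusted p 0.0542 to 0.121), and in OEA8_69 without OEA8_69 replicate 2 (0.0559). Without a filter the adjusted p were 0.102 and 0.0518, and in the fit of the compared groups that of OEA8_67 was 0.0651. Its control mean of 0.973 FPKM is under 1 FPKM, so this gene too was a member through the mutant groups. Its exons share 12.7% of their bases with Gm7097 and 10.8% with the pseudogene Gm9877, both on the opposite strand, so reads of these genes may be counted with it if strand was not kept. Slc16a1 (0.774 and 0.742) and Slc17a5 (0.304 and 0.472) did not pass.

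In the class of vitamins, nucleosides and organic ions, 1 gene was higher and 1 lower, both in OEA8_69 (4.76% each, beside 4.55% and 5.24% of all genes). Slc29a1, the main equilibrative nucleoside transporter, was at 102.96, 104.43 and 106.02 FPKM in OEA8_Ctrl, 107.51, 106.03 and 112.74 in OEA8_67 and 123.22, 114.57 and 117.98 in OEA8_69. It was higher in OEA8_69 by 0.18 (SE 0.04, adjusted p = 0.0166), with adjusted p of 0.0602, 0.0884 and 0.0522 without OEA8_Ctrl replicate 1, OEA8_69 replicate 1 and OEA8_69 replicate 3. The urate transporter Slc2a9 was at 2.08, 1.87 and 2.67 FPKM in OEA8_Ctrl, 1.90, 1.28 and 1.39 in OEA8_67 and 1.42, 1.42 and 1.30 in OEA8_69. It was lower in OEA8_69 by -0.42 (SE 0.11, adjusted p = 0.0268), which was lost without OEA8_Ctrl replicate 1 or 3 or any OEA8_69 library (0.0567 to 0.0863) and without a filter (0.0928). Among genes with no assigned substrate or class, Slc10a3 (adjusted p = 0.270 and 0.423), Slc10a7 (0.465 and 0.151) and Slc49a4 (0.874 and 0.177) did not pass. Exon bases are shared with another gene for 8 of the 23 transporters that passed in any comparison and for 49 of the 170 that matched the GENCODE annotation by symbol.

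Of 17 tested genes for partner proteins and carriers outside the Slc families, 0 were higher and 1 lower in OEA8_67 (5.88%, beside 4.66% of all genes), and 1 was higher and 1 lower in OEA8_69 (5.88% each, beside 4.55% and 5.24%). Emb, embigin, a partner that brings monocarboxylate transporters to the surface, was at 27.88, 26.53 and 26.22 FPKM in OEA8_Ctrl, 22.13, 20.83 and 21.64 in OEA8_67 and 32.98, 31.69 and 30.49 in OEA8_69. The groups formed 3 separate levels, with OEA8_67 below and OEA8_69 above the control. The differences were -0.31 (adjusted p = 0.00167) in OEA8_67, 0.23 (adjusted p = 0.00762) in OEA8_69 and 0.54 (adjusted p = 0.000145) between the mutants. The organic anion transporter Slco4a1 was at 25.33, 23.81 and 26.05 FPKM in OEA8_Ctrl, 24.20, 23.71 and 23.68 in OEA8_67 and 17.99, 16.00 and 18.58 in OEA8_69. It was lower in OEA8_69 than in OEA8_Ctrl (-0.49, adjusted p = 0.000154) and than in OEA8_67 (-0.43, adjusted p = 0.00227). All calls of Emb and Slco4a1 were kept with any library left out.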

How the data were processed

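RNA-seq levels of 9 mouse libraries in 3 labelled groups of 3 were used. Nothing says that these were separate cultures, so p-values measure the spread between libraries, which may be technical. TRIzol RNA was sequenced on a BGISEQ-500, with Bowtie2 2.2.5, HISAT2 2.0.4 and genome build mm10 listed by the submitters for processing. The authors deposited FPKM per gene and library (RSEM, version not given in the sources used here), rounded to 2 decimals, and group means, used only as a check. FPKM is relative to all mapped fragments, so a rise of abundant genes lowers the others, and RSEM shares reads between near-identical genes. Depth could not be recovered and is unknown, as is whether counting used strand.

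Log2(FPKM + 1) was fitted with limma 3.58.1 (trended moderation, R 4.3.3) in the 12012 genes averaging 0.5 FPKM or more, with all 9 libraries in one model, two-sided tests and Benjamini-Hochberg adjustment over these genes (calls at 0.05). The script was tested on simulated data. All 173 expressed Slc genes passed the filter. The Slc genes, substrate classes and lists were chosen with earlier results of these data known, and no list was tested. Named were the 4 highest genes of the amino acid, glucose, metal and lipid classes, the 2 highest of each other class, every called Slc gene, 3 genes on each side of the 1 FPKM threshold, up to 4 called genes of each other list, and Slc3a2 with Slc7a5. Some genes under this rule are not reported here. Slc39a8, Slc7a7 and Slc20a2 were named after their values were seen. Alternatives changed the pseudocount, filter, scaling, moderation, samples and replicate block, and left out each library. Positions and promoters are from RefSeq (GRCm38.p6) and overlaps from GENCODE M21. Figures were drawn with Python 3.11.15 and matplotlib 3.10.9.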

Additional observations from a re-analysis of the deposited data

Results flagged for a closer look

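Among the expressed transporters and the lists of transport-related genes, the effects of the 2 mutants against the shared control differed for 5 genes. The test was OEA8_69 against OEA8_67 in limma, which called 379 of all 12012 genes (3.16%). It called 2 of the 173 transporters (1.16%) and 1 of 15 tested genes of metal handling. Of 17 partners and other carriers it called 1 higher and 1 lower. None of 23 amino acid response, 17 glucose use and 16 lipid genes was called. Genes of the cell type marker lists are not counted among the 5. The transporters were the phosphate transporter Slc20a1 (-0.31 in log2(FPKM + 1), adjusted p = 0.00794, lower in 3 of 3 OEA8_69 libraries) and the glutamine transporter Slc38a1 (-0.23, adjusted p = 0.0397, also lower in 3 of 3). Outside the Slc families these were Emb (0.54, adjusted p = 0.000145), Slco4a1 (-0.43, adjusted p = 0.00227) and Tfrc (-0.34, adjusted p = 0.0371). Slc38a1 and Tfrc lost this call without OEA8_Ctrl replicate 1 or any 1 mutant library, while Slc20a1, Emb and Slco4a1 kept it. Emb moved in opposite directions in the 2 mutants. The cause was not tested.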

How the results depend on the processing

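All 33 called differences of single transporters kept their direction under every alternative that tested them, and the calls of Slc38a4, Slc7a2, Slc27a1, Slc20a1 and Slc39a4 against OEA8_Ctrl were kept in both mutants (the filter at 5 FPKM left Slc39a4 untested). The pseudocounts of 0.1 and 0.5 FPKM, the filter at 5 FPKM robust moderation and quantile normalization lost none of the calls they could test. Without a filter 9 of 33 were lost, restricted to the compared groups 5, with the replicate block 3, and 1 each under median-of-ratios scaling and without the trend. With 1 library left out, the number of called transporters ranged from 6 to 14 in OEA8_67, from 12 to 29 in OEA8_69 and from 1 to 12 between the mutants, the highest of the last 2 without OEA8_Ctrl replicate 3. Over the same fits the share of all genes called ranged from 3.8% to 8.72%, 6.2% to 14.9% and 1.02% to 8.61%. Between the mutants 9 were called in the fit of these groups alone, against 2 in the fit of all libraries, beside 8.13% and 3.16% of all genes. Median-of-ratios scaling called 4 higher and 9 lower in OEA8_67, against 5 and 5, while the median of all genes moved from 0.02 to 0.00. The replicate block gave 11, 19 and 1 calls in the 3 comparisons, beside 5.98%, 8.18% and 2.01% of all genes. Deviations from the group means correlated at -0.25 to 0.15 for the 9 pairs of libraries with the same number and at -0.20 to 0.28 for the others, so the numbers were not taken as a pairing. Under the block the calls of Slc38a1 between the mutants (adjusted p = 0.0746) and of Slc39a6 (0.0643) and Slc4a11 (0.0527) in OEA8_69 were lost, as were those of Psat1 (0.0552), Atf5 (0.0572), Acsl1 (0.0694) and Acsl4 (0.0519) in OEA8_67 and of Aldoa (0.0728), G6pc3 (0.0672) and Acsl5 (0.0786) in OEA8_69. The median of the lipid class in OEA8_69, -0.04, was -0.09 without OEA8_69 replicate 3 and 0.01 without OEA8_69 replicate 1. The causes of these shifts were not tested. Genes near 1 FPKM, such as Slc40a1, Slc16a9, Slc2a9 and Slc4a11, had a control SD of 0.055 to 0.415 FPKM. Depth is unknown, so their counting error cannot be given.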
